A study of Jaculus jaculus and Mus musculus with 24 samples.

Results

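Mettl11b, Dupd1, Tecrl, Dpysl5 and F2rl1 are 5 of the 17641 features counted in a study of the muscle that the jerboa loses from its hindfoot. They were picked because their counts were much lower in jerboa foot muscle than in jerboa forelimb muscle, or because the ratio of foot to forelimb was far under that of the mouse. Each was found by the mouse transcript identifier that carries its symbol, and all 5 passed the filter on low counts that left 14448 genes for testing. Differences between foot and forelimb, and their contrast between the species, therefore chose the genes and are given here as descriptions without a test. The contrast of P3 with P0 within a tissue was not used to choose them and was tested. It is made of the same libraries as the chosen ratios, so its p values are not free of the choice.

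The study sequenced total RNA from the muscle of the hindfoot, taken from sections of the foot, and from the flexor digitorum superficialis (FDS), a digit flexor dissected from the forelimb. Both were taken from Jaculus jaculus, the lesser Egyptian jerboa, a hopping desert rodent whose intrinsic foot muscles disappear after birth, and from the laboratory mouse (Mus musculus), which keeps them. The 8 groups were jerboa foot, jerboa forelimb, mouse foot and mouse forelimb, each sampled on the day of birth (P0) and 3 days later (P3), with 3 libraries per group, 24 in all. Every library's treatment is labelled normal. No strain, sex or genotype is named in the labels. Nothing in them says that the 3 libraries of a group were 3 animals, so every p below measures the spread between libraries. Sectioning against dissection goes with foot against forelimb throughout, and the P0 files are described as trimmed reads and the P3 files as original reads, so that neither difference can be told apart from tissue or age.

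The 5 genes have separate roles. Mettl11b (also Ntmt2) is a methyltransferase of the family that modifies the free amino end of proteins. Dupd1 (also Dusp29) is a dual-specificity phosphatase of striated muscle, and Tecrl is an endoplasmic reticulum protein of heart and skeletal muscle related to the reductase that completes fatty acid elongation, and is known for a link to calcium handling. Dpysl5 (also Crmp5) belongs to the collapsin response mediators, cytosolic proteins that couple semaphorin signals to the cytoskeleton in growing nerve processes. F2rl1 encodes protease-activated receptor 2, which is switched on when a protease such as trypsin or mast cell tryptase cuts its outer end and exposes a built-in ligand.

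The libraries hold 16.7 M to 54.7 M counted reads each, so that 3 reads, taken here as the limit of detection, stand for 0.0549 to 0.179 CPM, or counts per M reads. Levels are CPM on normalised library sizes, intervals of 95% on a group's reads are exact Poisson intervals that cover counting error only, and log2 differences are given ± SE from the edgeR fit. Levels are not compared between jerboa and mouse, whose gene models differ. Muscle markers were present in all groups, but their summed level in foot was 53.1% of that in forelimb in jerboa at P0 and 49.0% at P3, and 49.5% and 64.9% in mouse. In these bulk samples fewer cells of a type and less RNA per cell cannot be told apart.

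In jerboa, all 5 genes were lower in every foot library than in every forelimb library at both ages, where 35.3% of all genes tested at P0 and 33.7% at P3 had this order. This order was among the grounds for choosing them, so the counts say nothing further. None was at 0 in any jerboa foot library. The differences ran from 4.001-fold for Dpysl5 to 54.1-fold for Mettl11b at P0, and from 5.89-fold to 77.9-fold for the same genes at P3. Ranked from the lowest log2 ratio of all 14448 genes, Mettl11b, Dupd1, Tecrl, F2rl1 and Dpysl5 stood at places 8, 44, 101, 234 and 551 at P0 and at places 6, 30, 35, 95 and 262 at P3. In mouse the same order of libraries, foot below forelimb, held for 3 of the 5 at each age, against 30.4% and 32.1% of all genes, and the opposite order for 2, against 30.8% and 35.8%.

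**Figure D1:**
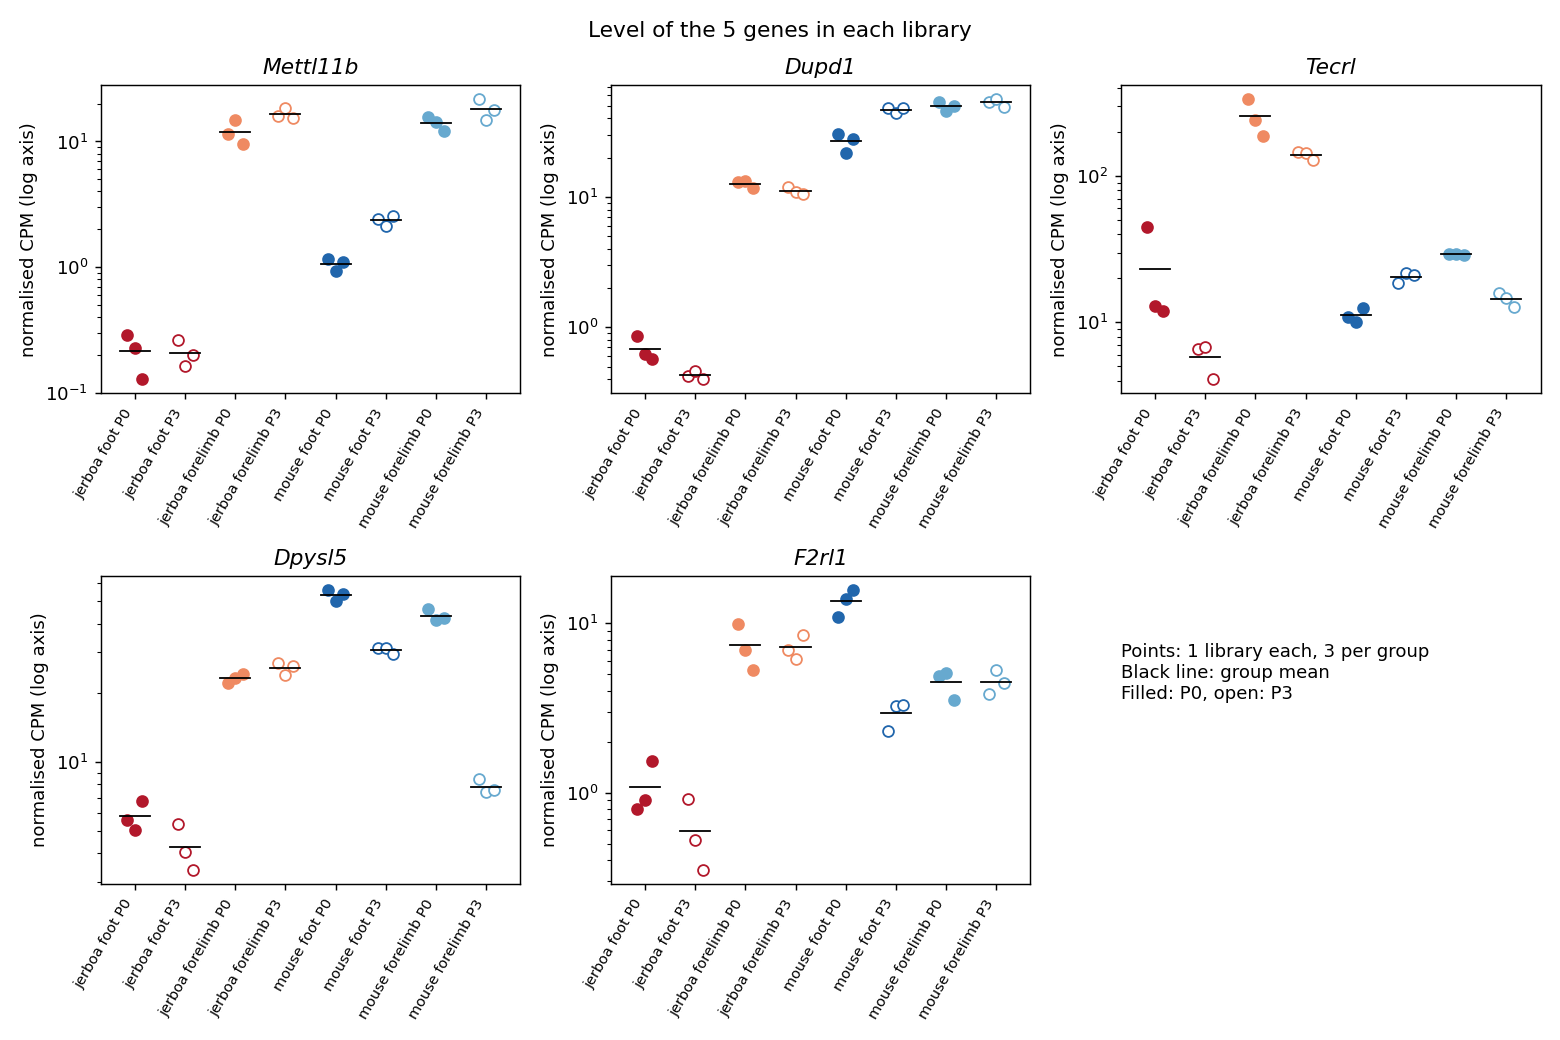
Normalised CPM (log axis) of each of the 5 genes in the 24 libraries, by species, tissue and age; each point is 1 library, the black line the mean of 3, filled points P0 and open points P3. In every panel the 6 jerboa foot libraries lie below the 6 jerboa forelimb libraries, and for Mettl11b the 6 mouse foot libraries also lie below the 6 mouse forelimb libraries.

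Mettl11b was close to 0 in jerboa foot and low in mouse foot too. At P0 the jerboa foot libraries held 5, 4 and 2 reads (0.286, 0.227 and 0.128 CPM) and the forelimb libraries 314, 399 and 321 reads (11.5, 14.8 and 9.56 CPM). At P3 the foot libraries held 8, 5 and 4 reads (0.261, 0.165 and 0.199 CPM) and the forelimb libraries 516, 545 and 433 reads (15.8, 18.5 and 15.5 CPM). The 6 foot libraries thus lie close to the limit of detection, with a group interval of 0.108 to 0.388 CPM at P0 and 0.122 to 0.336 CPM at P3, while no forelimb library fell under 9.56 CPM.

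In mouse, Mettl11b stood at 1.17, 0.93 and 1.11 CPM in foot and 15.8, 14.3 and 12.2 CPM in forelimb at P0. At P3 it stood at 2.39, 2.12 and 2.57 CPM in foot and 21.8, 14.7 and 17.9 CPM in forelimb. The log2 ratio of foot to forelimb was -3.73 ± 0.19 at P0 and -2.95 ± 0.16 at P3 in mouse, and -5.76 ± 0.29 and -6.28 ± 0.26 in jerboa. A low level in foot was therefore a feature of both species for this gene, and a name that places its loss in the jerboa alone does not describe it. In mouse its ratio ranked at place 26 from the lowest at P0 and 88 at P3.

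Dupd1 was under 1 CPM in every jerboa foot library and at 10.5 CPM or more in every jerboa forelimb library. The jerboa foot libraries held 15, 11 and 9 reads at P0 (0.858, 0.625 and 0.575 CPM) and 13, 14 and 8 reads at P3 (0.424, 0.461 and 0.398 CPM). Jerboa forelimb stood at 13.1, 13.2 and 11.7 CPM at P0 and at 11.9, 10.9 and 10.5 CPM at P3. The foot libraries lay within a narrow band at each age, and jerboa forelimb varied little around its means.

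Mouse foot held Dupd1 at 30.6, 21.8 and 27.6 CPM at P0 and at 48.3, 43.9 and 47.7 CPM at P3. Mouse forelimb held it at 53.9, 45.5 and 49.9 CPM at P0 and at 53.6, 56.4 and 49.1 CPM at P3. Mouse foot was lower than forelimb at P0 and had come close to it at P3, with no overlap at either age. The log2 ratio of foot to forelimb was -4.19 ± 0.18 and -4.68 ± 0.18 in jerboa at P0 and P3, and -0.90 ± 0.10 and -0.19 ± 0.09 in mouse.

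The phosphatase signature marks the family to which Dupd1 belongs, and it is given here beside those of Dusp13 and Dusp26. The mouse coding sequences (GRCm38) around the active site are given below, each from the minus strand for Dupd1 (chr14:21677117-21677152, exon 4) and Dusp13 (chr14:21733808-21733843, exon 4) and from the plus strand for Dusp26 (chr8:31096197-31096232, exon 5), with the codons of the catalytic cysteine and of the arginine that closes the signature in capitals.
Dupd1: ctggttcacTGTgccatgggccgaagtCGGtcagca
Dusp13: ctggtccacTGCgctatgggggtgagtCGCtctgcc
Dusp26: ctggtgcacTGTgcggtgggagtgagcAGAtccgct

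The stretches were found by a search for this cysteine and arginine. The shared places of both codons were therefore fixed by the search and do not measure how near the genes are. Dusp13 is also the neighbour of Dupd1 on mouse chromosome 14, and its level in jerboa foot is compared with that of Dupd1 below.

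Tecrl was far lower in jerboa foot than in forelimb, and its foot libraries at P0 were uneven. At P0 the jerboa foot libraries held 783, 228 and 188 reads (44.8, 12.9 and 12.02 CPM) and the forelimb libraries stood at 335.5, 242.5 and 187.7 CPM. At P3 foot stood at 6.59, 6.84 and 4.08 CPM and forelimb at 144.8, 143.4 and 127.5 CPM. Foot replicate 1 at P0 stood 3.46 times above the middle library of its group, yet still far under the lowest forelimb library.

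The mouse order of Tecrl turned over between the ages. Mouse foot stood at 10.9, 10.1 and 12.6 CPM at P0 and at 18.7, 21.6 and 21.04 CPM at P3, and mouse forelimb at 29.4, 29.2 and 28.9 CPM at P0 and at 15.8, 14.7 and 12.6 CPM at P3. Foot was below forelimb at birth and above it at P3, in all libraries. The log2 ratio of foot to forelimb was -3.45 ± 0.29 and -4.54 ± 0.32 in jerboa, and -1.38 ± 0.29 and 0.51 ± 0.28 in mouse. Without jerboa foot replicate 1 the ratio at P0 was -4.35.

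Dpysl5 had the smallest deficit of the 5 in jerboa foot. The foot libraries stood at 5.61, 5.05 and 6.78 CPM at P0 and at 5.35, 4.08 and 3.39 CPM at P3. Jerboa forelimb stood at 22.1, 23.3 and 24.1 CPM at P0 and at 26.9, 23.8 and 26.1 CPM at P3. The foot still held between 68 and 164 reads per library, so that this gene was reduced and not lost. The same holds for Tecrl, with 82 to 783 reads per jerboa foot library.

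In mouse, Dpysl5 went the other way. Foot stood at 56.2, 50.3 and 54.1 CPM and forelimb at 46.2, 41.4 and 42.4 CPM at P0. At P3 foot stood at 31.5, 31.3 and 29.5 CPM and forelimb at 8.43, 7.41 and 7.58 CPM. All mouse foot libraries were above the forelimb libraries of the same age, with log2 ratios of 0.30 ± 0.09 at P0 and 1.98 ± 0.10 at P3, against -2.0 ± 0.12 and -2.56 ± 0.12 in jerboa.

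F2rl1 was low in jerboa foot at both ages. Jerboa foot held 14, 16 and 24 reads at P0 (0.801, 0.908 and 1.53 CPM) and 28, 16 and 7 reads at P3 (0.913, 0.526 and 0.349 CPM). Jerboa forelimb stood at 9.97, 6.99 and 5.27 CPM at P0 and at 7.001, 6.14 and 8.58 CPM at P3. The 2 tissues did not overlap, and the spread within foot was wide, 1.91-fold between the extremes at P0 and 2.62-fold at P3.

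The mouse levels of F2rl1 were highest in foot at birth. Foot stood at 10.9, 14.0 and 15.8 CPM at P0 and at 2.31, 3.25 and 3.30 CPM at P3, and forelimb at 4.89, 5.06 and 3.52 CPM at P0 and at 3.82, 5.32 and 4.45 CPM at P3. The log2 ratio of foot to forelimb in mouse thus changed from 1.60 ± 0.22 at P0 to -0.61 ± 0.23 at P3, while in jerboa it was -2.78 ± 0.31 and -3.53 ± 0.31. Foot was above forelimb in all mouse libraries at birth and below it in all at P3.

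The ligand that this receptor carries within itself is read from the codons that follow the cleavage site. The mouse coding sequences (GRCm38, minus strand, exon 2 of each gene) are given for F2rl1 (chr13:95514241-95514270) and for the thrombin receptor gene F2r beside it (chr13:95604885-95604914), with the codons of the tethered ligand in capitals, since these letters tell the receptors of the family apart.
F2rl1: agtaaaggaagaAGTCTTATTGGCAGATTA
F2r: gtgaacccccgcTCATTCTTTCTAAGGAAT

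Per kilobase of mouse transcript, the mean level in mouse forelimb at P0 fell in the order Dupd1 (43.7 CPM per kb), Tecrl (12.4), Dpysl5 (8.35), Mettl11b (7.88) and F2rl1 (1.64). In mouse foot at P0 the order was Dupd1 (23.4), Dpysl5 (10.3), F2rl1 (4.96), Tecrl (4.77) and Mettl11b (0.597). Mettl11b thus moved from the fourth place to the last between mouse forelimb and mouse foot. No such order is given for jerboa, for which no transcript lengths were used.

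Neighbouring groups in the order of levels were not always distinct. In jerboa, the foot libraries of P0 and P3 overlapped for Mettl11b, Dpysl5 and F2rl1, and the forelimb libraries of P0 and P3 overlapped for Dupd1, Dpysl5 and F2rl1. In mouse, the forelimb libraries of P0 and P3 overlapped for Mettl11b, Dupd1 and F2rl1. Mouse Dupd1 also overlapped between forelimb at P0 and foot at P3, but not between forelimb and foot at P3. Every step of the order was free of overlap for Tecrl in both species and for Dpysl5 in mouse.

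From P0 to P3 the 5 genes changed in different ways. In jerboa foot, 2 of the 5 fell (Tecrl and Dpysl5) and none rose, in a comparison that called 47.3% of all genes in one direction or the other and 20.3% as lower (edgeR quasi-likelihood test, Benjamini-Hochberg adjusted p under 0.05). Mouse foot called all 5, with Mettl11b, Dupd1 and Tecrl higher and Dpysl5 and F2rl1 lower, where 57.6% of all genes were called. In jerboa forelimb Mettl11b rose and Tecrl fell, where 43.2% of all genes were called. In mouse forelimb Mettl11b rose, and Tecrl and Dpysl5 fell, where 51.4% of all genes were called.

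**Figure D2:**
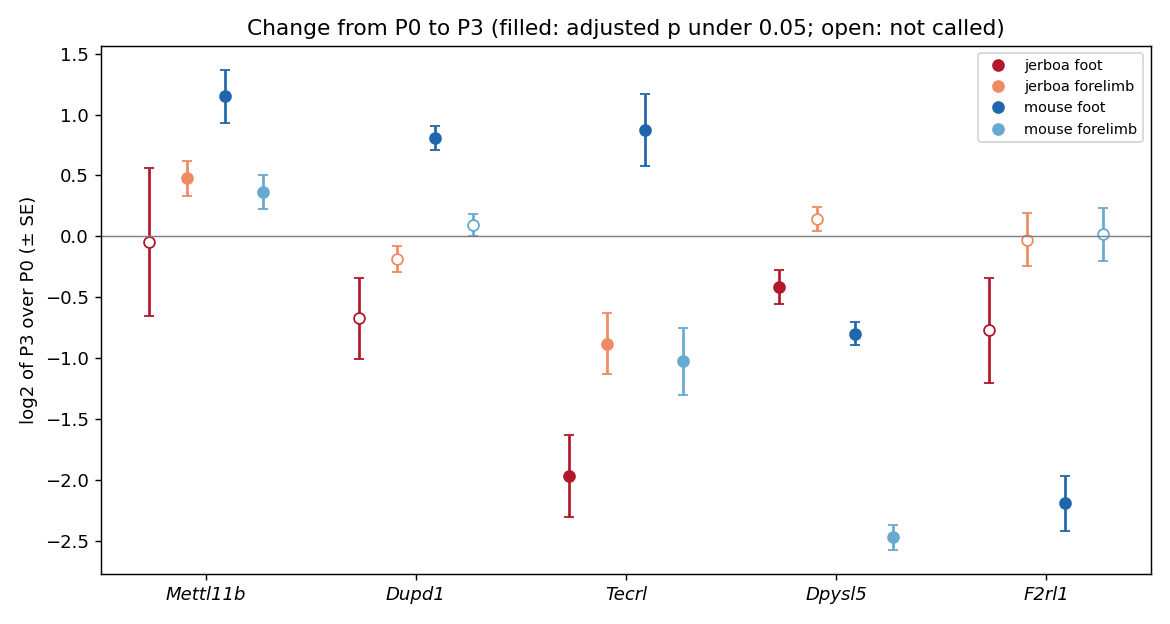
Log2 of P3 over P0 ± SE of the 5 genes in each of 4 tissues, from the edgeR fit over 24 libraries; filled points have an adjusted p under 0.05 and open points do not. Mouse foot has 5 filled points, 3 above and 2 below the line at 0, and jerboa foot has 2 filled points, both below it.

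Tecrl had the largest change of the 5 in jerboa foot. It fell by 1.97 ± 0.34 on the log2 scale (edgeR adjusted p = 3.7e-05, lower in 3 of 3 libraries), and by 1.06 (adjusted p = 0.00046) without jerboa foot replicate 1 at P0. It also fell in jerboa forelimb, by 0.88 ± 0.25 (edgeR adjusted p = 0.0067), a call that was lost without forelimb replicate 1 at P0 (adjusted p = 0.065). In mouse forelimb it fell by 1.03 ± 0.28 (adjusted p = 0.0032), and in mouse foot it rose by 0.87 ± 0.29 (adjusted p = 0.014, or 0.053 without mouse foot replicate 2 at P0). Over the same interval 6 of 8 muscle fibre markers fell in each jerboa tissue, where 20.3% of all genes fell in foot and 20.6% in forelimb, with summed levels at P3 of 70.6% and 76.4% of those at P0 in foot and forelimb, and their part in the change of Tecrl was not tested.

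Dpysl5 fell steeply in mouse forelimb, by 2.47 ± 0.10 on the log2 scale (edgeR adjusted p = 5.1e-15), and by 0.80 ± 0.09 in mouse foot (adjusted p = 9.6e-08), in 3 of 3 libraries each. In jerboa foot it fell by 0.42 ± 0.14 (edgeR adjusted p = 0.015), with overlapping libraries. That call was lost without foot replicate 3 at P0 (a log2 difference of -0.295, adjusted p = 0.11) and without foot replicate 2 or 3 at P3 (-0.37 and -0.29, adjusted p = 0.060 and 0.084). It was also lost, with a difference at least as large, with limma voom (-0.42, adjusted p = 0.061) and in a fit of the compared libraries only (-0.485, adjusted p = 0.070). In jerboa forelimb the difference was 0.14 ± 0.10 (adjusted p = 0.25).

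Mettl11b rose in mouse foot by 1.15 ± 0.22 on the log2 scale (edgeR adjusted p = 7.4e-05), with no overlap of libraries. It rose by 0.48 ± 0.15 in jerboa forelimb (adjusted p = 0.010), a call lost without forelimb replicate 3 at P0 (0.088) or forelimb replicate 2 at P3 (0.060). The rise of 0.36 ± 0.14 in mouse forelimb (adjusted p = 0.033) was lost when mouse forelimb replicate 2 or 3 at P0 or replicate 1 or 3 at P3 was left out, with adjusted p between 0.062 and 0.25. In jerboa foot, with 11 reads at P0 and 17 at P3, the difference was -0.05 ± 0.61, and a change of the size seen in mouse foot was not detectable at this depth.

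Dupd1 rose in mouse foot by 0.81 ± 0.10 (edgeR adjusted p = 1.1e-07), in 3 of 3 libraries. In jerboa foot its 3 libraries at P3 lay below the 3 at P0, with a log2 difference of -0.67 ± 0.33 that did not pass the test (edgeR adjusted p = 0.10). The forelimb differences were -0.19 ± 0.11 in jerboa and 0.09 ± 0.09 in mouse (adjusted p = 0.17 and 0.42).

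F2rl1 fell in mouse foot by 2.19 ± 0.22 (edgeR adjusted p = 1.2e-08), in 3 of 3 libraries. In jerboa foot the difference was -0.77 ± 0.43 (edgeR adjusted p = 0.14), which DESeq2 called (adjusted p = 0.042). The forelimb differences were -0.03 ± 0.22 in jerboa and 0.02 ± 0.22 in mouse, with adjusted p of 0.95 and 0.97.

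The change from P0 to P3 was then compared between the species within a tissue, a contrast added after the data were seen. It shares libraries with the ratios by which the genes were chosen, so its p values are not free of that choice. In foot it called 3 of the 5 genes, where 35.7% of all genes were called. Relative to mouse, Tecrl changed by -2.84 ± 0.45 (edgeR adjusted p = 3e-05) and Dupd1 by -1.48 ± 0.35 (adjusted p = 0.0019), since both rose in mouse foot and their jerboa values went down. Without jerboa foot replicate 1 at P0 the difference of Tecrl was -1.94, and its adjusted p stayed at or under 0.00046 in all 21 alternatives run.

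F2rl1 differed in the opposite sense, by 1.42 ± 0.49 (edgeR adjusted p = 0.025), its fall being the deeper in mouse foot. This call was lost without jerboa foot replicate 1 or 2 at P0 (adjusted p = 0.071 and 0.063), without replicate 1 at P3 (0.22) and with limma voom (0.082). Dpysl5 (0.38 ± 0.17, adjusted p = 0.072) and Mettl11b (-1.20 ± 0.67, adjusted p = 0.17) were not called, but Dpysl5 was called without jerboa foot replicate 3 at P0 (0.027) or at P3 (0.018).

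In forelimb the contrast of the species called 1 of the 5 genes, where 36.8% of all genes were called. Dpysl5 differed by 2.62 ± 0.14 (edgeR adjusted p = 7.7e-12), as it fell in mouse forelimb and stood at about the same level at both ages in jerboa forelimb. The other 4 had log2 differences between -0.28 and 0.15, with adjusted p from 0.13 for Dupd1 to 0.95 for F2rl1.

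The relatives of the 5 genes went in both directions in jerboa foot. They were not chosen by this contrast and were tested. Of the 11 relatives that passed the filter, 6 were lower, 3 higher and 2 not called in jerboa foot at P0, where 34.8% of all genes were lower and 31.2% higher. At P3, 6 were lower, 2 higher and 3 not called, where 32.1% were lower and 35.9% higher. The 5 genes were picked for their low ratios in this contrast, so that a smaller deficit of their relatives was fixed by the choice and is no result. F2rl2 did not pass the filter, with 3 to 9 reads per group.

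**Figure D3:**
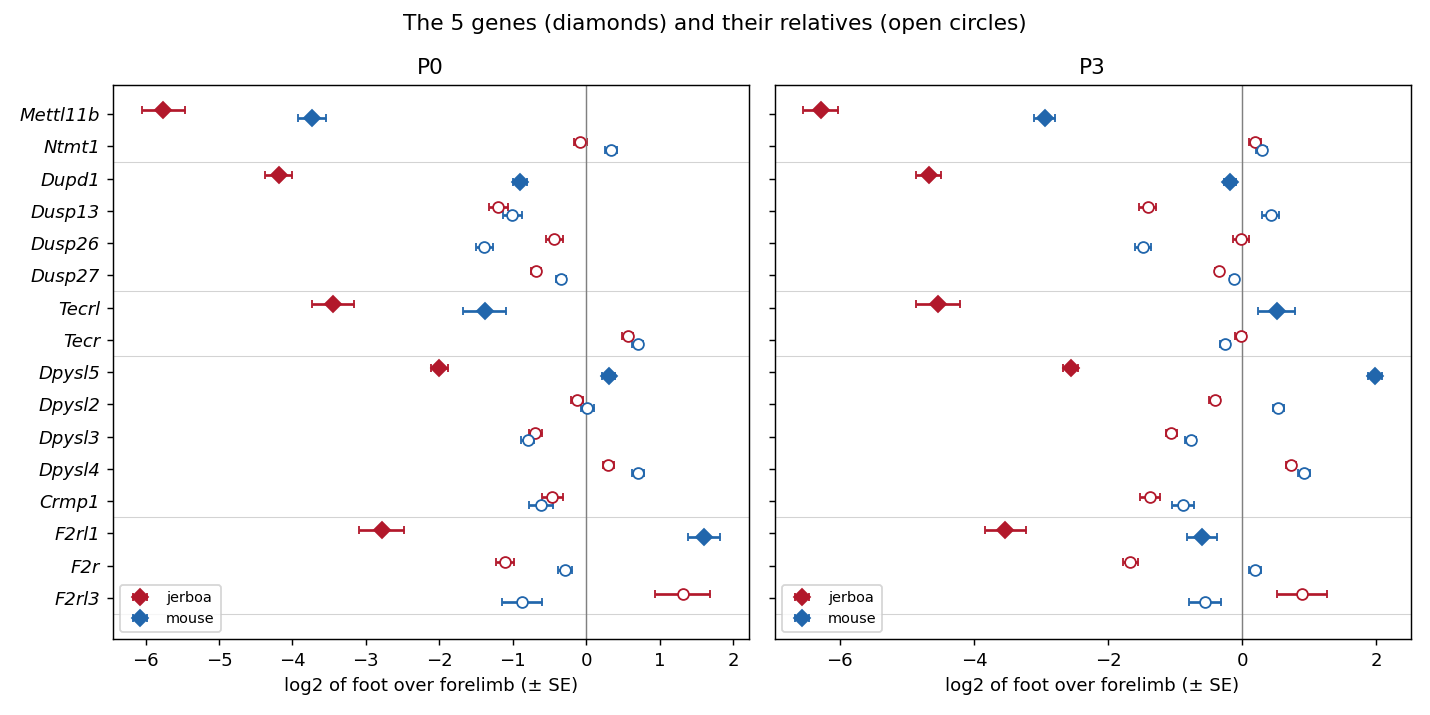
Log2 of foot over forelimb ± SE at P0 and P3 for the 5 genes (diamonds) and the relatives that passed the filter (open circles), in jerboa (red) and mouse (blue). The diamonds were chosen on this ratio in jerboa, so their place to the left of the circles was fixed by the choice; the red circles range from -1.67 for F2r at P3 to 1.32 for F2rl3 at P0.

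Ntmt1, the widely expressed amino-terminal methyltransferase, stood at 30.9 ± 2.04 CPM in the foot of the jerboa and at 32.6 ± 2.08 CPM in its forelimb at P0 (SD, n = 3), with a log2 ratio of -0.08 ± 0.09 (edgeR adjusted p = 0.45), and at P3 the ratio was 0.19 ± 0.09 (adjusted p = 0.055). This value at P3 lay close to the threshold, and Ntmt1 was called higher with DESeq2 size factors (0.048), the DESeq2 test (0.044), a stricter filter on low counts (0.043) and a replicate block (0.043), and without jerboa foot replicate 2 (0.034) or 3 (0.049), with log2 ratios of 0.191 to 0.245. In the phosphatase family, Dusp13, another enzyme of striated muscle, was lower in jerboa foot by 1.19 ± 0.13 at P0 and 1.41 ± 0.13 at P3 (adjusted p = 8.3e-09 and 4.6e-10). Dusp27, a phosphatase-like muscle protein, fell short by less, with log2 ratios of -0.68 ± 0.07 and -0.35 ± 0.06 (adjusted p = 1.4e-09 and 4e-05). Dusp26 was lower at P0 (-0.43 ± 0.12, adjusted p = 0.0019) and not called at P3 (-0.02 ± 0.11, adjusted p = 0.90). In mouse foot at P0, Dusp13 and Dusp26 were lower too, with log2 ratios of -1.01 ± 0.13 and -1.39 ± 0.11. At P3 Dusp26 was lower in mouse foot (-1.48 ± 0.12), and the mean of Dusp13 was above that of forelimb (13.1 against 9.79 CPM). Mouse foot had lower means of Dusp27 and higher means of Ntmt1 than forelimb at both ages.

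Tecr, the reductase of the elongation cycle from which Tecrl takes its name, was higher in jerboa foot at P0, by 0.57 ± 0.08 (edgeR adjusted p = 3.7e-07), and not called at P3 (-0.03 ± 0.08, adjusted p = 0.79). Among the collapsin response mediators, Dpysl3 was lower in jerboa foot at both ages (-0.69 ± 0.08 and -1.06 ± 0.08), as was Crmp1 (-0.46 ± 0.15 and -1.38 ± 0.15), and Dpysl4 was higher at both (0.30 ± 0.07 and 0.73 ± 0.07). Dpysl2 was not called at P0 (-0.13 ± 0.09, adjusted p = 0.20) and was lower at P3 (-0.41 ± 0.08, adjusted p = 0.00013). The call of Crmp1 at P0 (adjusted p = 0.0084) was lost without jerboa foot replicate 2 (0.066). In mouse foot, Tecr was higher at P0 (0.70 ± 0.07), and its mean at P3 was below that of forelimb (134.7 against 160.9 CPM). Mouse foot had lower means of Dpysl3 and Crmp1 and higher means of Dpysl4 than forelimb at both ages. Mean Dpysl2 in mouse foot and forelimb was 36.1 and 35.7 CPM at P0, and 48.0 and 33.1 CPM at P3.

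F2r, the thrombin receptor, was lower in jerboa foot by 1.11 ± 0.12 at P0 and 1.67 ± 0.11 at P3 (edgeR adjusted p = 1.3e-08 and 1.9e-12). In mouse its ratios were -0.29 ± 0.10 and 0.19 ± 0.10. F2rl3, a second thrombin receptor of the family, was near the limit of detection, with means of 0.904 and 0.352 CPM for foot and forelimb of the jerboa at P0, and was higher in foot by 1.32 ± 0.38 (adjusted p = 0.0034). At P3 it was higher by 0.89 ± 0.37 (adjusted p = 0.038), a call that limma voom did not make (0.058) and that was lost without foot replicate 2, forelimb replicate 1 or forelimb replicate 3. In mouse the mean of F2rl3 was lower in foot than in forelimb at both ages.

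The pathways around the 5 genes were described by gene lists, which were drawn up with earlier results of these data known, and each list's median is given beside that of all genes tested (-0.01 at P0 and 0.04 at P3 in jerboa, 0.01 and 0.03 in mouse). Of all genes, 29.3% at P0 and 25.3% at P3 were lower in mouse foot, and 29.8% and 27.3% higher. Among contractile and metabolic genes of muscle fibres, 27 of 29 were lower and none higher in jerboa foot at P0, with a median log2 ratio of -1.04, and 25 were lower and 1 higher at P3, with a median of -1.35. In mouse foot 28 of 29 were lower at each age, with medians of -1.39 and -0.94. Creatine kinase Ckm (-2.26 ± 0.10) and perinatal myosin Myh8 (-2.76 ± 0.14) had the smallest p in jerboa at P0 (edgeR adjusted p = 3.2e-15 and 2.2e-14).

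Among 25 genes of calcium release and excitation-contraction coupling, the setting in which Tecrl is known, 15 were lower and 4 higher in jerboa foot at P0 and 18 lower and 3 higher at P3. Mouse foot had 19 lower and 2 higher at P0 and 16 lower and 1 higher at P3. The ryanodine receptor Ryr3, a calcium release channel, had log2 ratios of -2.12 ± 0.09 at P0 and -2.40 ± 0.09 at P3 in jerboa (edgeR adjusted p = 1.9e-15 and 8.8e-17), and the calcium pump Atp2a1 of -1.78 ± 0.10 and -1.59 ± 0.10. In mouse at P0 the ratios were -1.69 ± 0.09 for Ryr3 and -1.74 ± 0.10 for Atp2a1. At P3 the mean of Ryr3 in mouse was 74.3 CPM in foot and 134.7 CPM in forelimb. Medians over the list were -0.67 and -0.56 in jerboa and -0.88 and -0.30 in mouse.

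Of 12 measured genes of very long chain fatty acid elongation, the pathway of Tecr, 5 were lower and 3 higher in jerboa foot at P0 and 2 lower and 3 higher at P3. The dehydratase Hacd1, which is abundant in muscle, was lower by 0.81 ± 0.07 and 0.78 ± 0.07 (edgeR adjusted p = 1.9e-10 and 2.3e-10), and the elongase Elovl1 was higher by 0.58 ± 0.07 and 0.46 ± 0.07. In mouse foot 3 were lower and 5 higher at P0, and 4 lower and 5 higher at P3. There Hacd1 was lower too (-0.43 ± 0.06 at P0 and -0.45 ± 0.06 at P3), and Elovl1 was higher at P0 (0.61 ± 0.07). Medians over the list were -0.15 and -0.01 in jerboa and 0.21 and 0.10 in mouse.

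Of 26 dual-specificity phosphatases other than Dupd1, 12 were lower and 10 higher in jerboa foot at P0, and 12 lower and 6 higher at P3. Dusp14 was higher at P0 by 1.24 ± 0.11 (edgeR adjusted p = 3.7e-10), and Dusp3 was lower at P3 by 1.42 ± 0.11 (adjusted p = 2.8e-11). Mouse foot had 12 lower at each age, with 5 higher at P0 and 7 at P3. Medians over these phosphatases were -0.14 and -0.19 in jerboa and -0.18 at both ages in mouse. Of 36 measured protein methyltransferases and substrates of amino-terminal methylation, 12 were lower and 8 higher in jerboa foot at P0, and 9 lower and 17 higher at P3. In mouse foot 9 were lower and 15 higher at P0, and 3 lower and 15 higher at P3. Medians over this list were -0.06 and 0.21 in jerboa and 0.19 and 0.26 in mouse. Rcc1, a known substrate that binds chromatin, was lower in jerboa foot by 1.20 ± 0.10 at P0 (edgeR adjusted p = 4.6e-11), and the retinoblastoma gene Rb1 by 0.74 ± 0.07 and 0.79 ± 0.06. Prmt5 and Setd3 were higher in jerboa foot at P3, by 0.45 ± 0.06 and 0.46 ± 0.06 (edgeR adjusted p = 1.1e-07 and 2.0e-07). In mouse foot Rb1 was higher at P3, by 0.51 ± 0.06 (edgeR adjusted p = 2.7e-07).

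Of 27 genes of semaphorin signalling and the other collapsin response mediators, 14 were lower and 7 higher in jerboa foot at P0, and 16 lower and 7 higher at P3, with medians of -0.46 and -0.45. In mouse foot 10 were lower and 13 higher at P0, and 11 lower and 7 higher at P3, with medians of 0.17 and -0.04. The semaphorin receptor genes Plxna2, Nrp1 and Plxnd1 were lower in jerboa foot at P0 by 1.35 ± 0.07, 1.51 ± 0.10 and 1.26 ± 0.08, and at P3 by 1.49 ± 0.07, 1.60 ± 0.09 and 1.64 ± 0.08 (edgeR adjusted p at or under 1.6e-12). Mical1, an oxidase that takes actin filaments apart, was higher in jerboa foot at P0 by 1.18 ± 0.07. In mouse foot Nrp1 was lower at P0 (-1.11 ± 0.09) and Plxnd1 at P3 (-0.90 ± 0.08). For Plxna2 the log2 ratio of jerboa minus that of mouse was -1.58 ± 0.10 at P0 and -1.49 ± 0.10 at P3.

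Of 20 measured genes for the other protease-activated receptors, their proteases and signalling partners, 7 were lower and 7 higher in jerboa foot at P0, and 7 lower and 6 higher at P3, with medians of 0.295 and -0.375. In mouse foot 5 were lower and 8 higher at P0, and 5 lower and 6 higher at P3, with medians of -0.11 at both ages. The G protein genes Gnaq and Gna11, which carry the receptors' signal, were lower by 0.93 ± 0.08 and 1.06 ± 0.06 at P0 and by 1.16 ± 0.07 and 0.94 ± 0.06 at P3 (edgeR adjusted p at or under 1.3e-10). Gna11 in mouse foot was higher at P0, by 0.31 ± 0.06. Cma1, a mast cell chymase, was higher in jerboa foot by 4.05 ± 0.36 at P0 and 5.39 ± 0.33 at P3. Cma1 is itself a mast cell gene, so the list of mast cell markers is no separate measure of it. Of the 4 markers tested, the foot of the jerboa had 3 called higher and 1 called lower, at each age. At P0 the list summed to 24.98 to 54.08 CPM in jerboa foot and 7.99 to 9.14 CPM in jerboa forelimb. The markers Tpsb2 and Mcpt4 were not among the counted features. The part of mast cells in these values was not tested. The mast cell marker Fcer1a was at 0 in jerboa forelimb at P3.

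Marker lists of other cell types differed between foot and forelimb in jerboa in both directions. Of all genes, 34.8% at P0 and 32.1% at P3 were lower in jerboa foot, and 31.2% and 35.9% higher. For endothelium, a cell type in which protease-activated receptors are known, 7 of 7 markers were lower in jerboa foot at both ages, with a summed level of 163.6 to 203.8 CPM in foot and 671.2 to 728.0 CPM in forelimb at P0, and of 194.0 to 221.2 against 952.8 to 1099 CPM at P3. Schwann cell markers were lower for 5 of 8 at P0 and 7 of 8 at P3, and their sum in jerboa foot was 68.2% and 55.0% of that in forelimb. Macrophage markers were lower for 7 of 8 and 6 of 8, and higher for 1 at each age. Endothelium markers in mouse foot were lower for 6 of 7 at P0 and 7 of 7 at P3, and their sum was 59.2% and 46.6% of forelimb. Schwann cell markers in mouse foot were lower for 0 of 8 and higher for 3 at P0. At P3 they were lower for 6 and higher for 1, and their sum was 107.7% and 50.5% of forelimb at P0 and P3. Macrophage markers in mouse foot were lower for 4 of 8 and 2 of 8, and higher for 1 at each age. None of these 3 lists had a marker at 0 throughout a jerboa group, and their part in the low levels of F2rl1, Dpysl5 and the other 3 genes was not tested.

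Tendon, cartilage, keratinocyte and neuron markers were higher in jerboa foot by count or by sum. Tendon markers were higher for 6 of 6 in both species at both ages. Cartilage markers were higher for 4 of 6 at P0 and 3 of 6 at P3 in jerboa foot, with 1 lower at each age. In mouse foot they were higher for 6 of 6 at P0 and 5 of 6 at P3. Keratinocyte markers summed to 88.70 to 135.6 CPM in jerboa foot at P0 against 16.13 to 19.72 CPM in forelimb, and neuron markers to 133.5% of the forelimb level. Satellite cell markers summed to 115.8% of the forelimb level at P0 and 107.5% at P3, with overlapping libraries at P3. Gene by gene, 3 of these 6 markers were lower in jerboa foot and 1 higher at each age. The log2 ratio of summed muscle fibre markers in jerboa was -0.91 at P0 and -1.03 at P3. The 29 contractile and metabolic genes had medians of -1.04 and -1.35, and single genes among them had ratios in the range of the 5 genes. Examples picked for small p at P3 were -6.08 ± 0.31 for Mybpc2, a myosin-binding protein of fast fibres, -5.77 ± 0.31 for the water channel Aqp4 and -3.37 ± 0.14 for Myh8. With reads of either strand counted, the ratio of Mybpc2 in jerboa at P3 was -4.51. In mouse foot Mybpc2 and Aqp4 were low too, with ratios of -5.06 ± 0.17 and -7.47 ± 0.20 at P3. The part of muscle content in the low levels of the 5 genes was not tested.

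**Figure D4:**
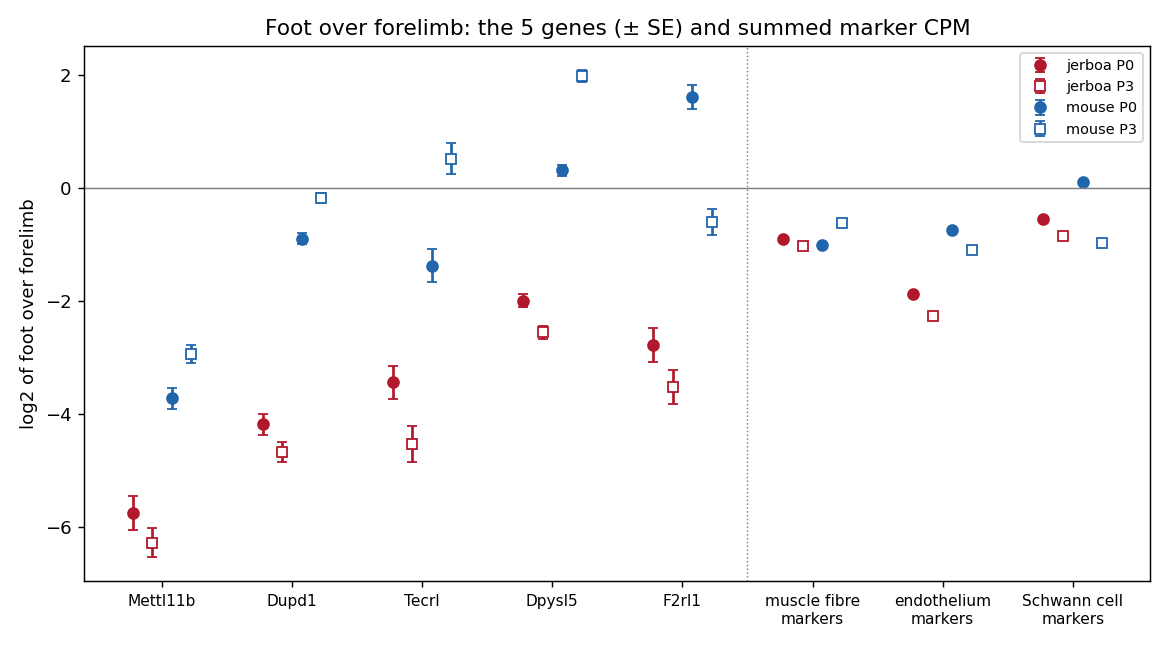
Log2 of foot over forelimb for the 5 genes (± SE, left of the dotted line) and for the summed CPM of 3 marker lists (no error drawn, right of it), in jerboa (red) and mouse (blue) at P0 (filled circles) and P3 (open squares). The 5 genes were chosen for low jerboa values in this contrast, so their place below the marker lists was fixed by the choice; their mouse values run from -3.73 for Mettl11b at P0 to 1.98 for Dpysl5 at P3.

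The genes with the most similar pattern were sought over the 24 libraries by Pearson's r of log2 CPM after each species' mean was subtracted, a description that shares libraries and library sizes between all genes. For Mettl11b these were Ntn1 (netrin 1), Tead1, Dmd (dystrophin), Ryr3 and Vps13d, with r from 0.979 to 0.984. For Dupd1 they were Carns1 (carnosine synthase), Ptgr1, Slco3a1, Zcchc24 and Col23a1, with r from 0.974 to 0.989. For Tecrl they were Col23a1, Carns1, Sv2b, Adamts15 and Phyhd1 (0.949 to 0.962), and Dupd1 came next, at rank 6 with r = 0.947.

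Dpysl5 was most like Pitpnm1, Plin3, Rasl10b, Dclk1 and Capn6 (r from 0.940 to 0.962), and F2rl1 most like Frmd4a, Sh2b3, Tmcc1, Sh2d3c and Chst1 (0.930 to 0.965). The names depended on the measure, since the 5 genes highest by Spearman's rho shared 0, 0, 2, 2 and 2 names with these for Mettl11b, Dupd1, Tecrl, Dpysl5 and F2rl1. Among the 5 genes themselves, where the choice itself could raise r, it was highest for Dupd1 and Tecrl. Mettl11b and Dupd1 followed (0.914), and r was lowest for Mettl11b and Dpysl5 (0.403). Carns1, which was named for both Dupd1 and Tecrl, had log2 ratios of foot to forelimb of -3.33 ± 0.21 at P0 and -3.79 ± 0.20 at P3 in jerboa, and of -0.81 ± 0.12 and 0.22 ± 0.11 in mouse.

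Properties of the genes that the choice did not use were also recorded in the mouse annotation (GRCm38, GENCODE M21). Mettl11b lies at chr1:163702256-163725232 (4 exons, transcript of 1790 bases), Dupd1 at chr14:21676537-21714576 (4 exons, 1138 bases) and Tecrl at chr5:83278145-83355195 (12 exons, 2350 bases). Dpysl5 lies at chr5:30711564-30799375 (13 exons, 5191 bases) and F2rl1 at chr13:95511732-95525227 (2 exons, 2741 bases). All but Dpysl5 are on the minus strand, and all code for protein. GC content of the transcripts ran from 36.77% for Tecrl, among the lowest 1.3% of features, to 56.64% for Dpysl5, so no common length or composition marked the 5.

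The reads of the 5 genes were also checked for strand and for sequence shared with other features. Reads on the opposite strand were 0.046% to 0.12% of the counted reads, against 1.05% over all features. Of all stretches of 31 bases in the mouse transcripts, none of Mettl11b, Dupd1, Tecrl or Dpysl5 occurred in another counted feature, and 11 of 2702 (0.407%) did for F2rl1. Each gene had 1 match in the jerboa RefSeq annotation (mJacJac1.mat.Y.cur), under the symbols Ntmt2, Dusp29, Tecrl, Dpysl5 and F2rl1, with 8, 7, 6, 9 and 5 of the 10 flanking mouse genes also near the jerboa gene.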

How the data were processed

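Total RNA of 24 libraries was analysed. The authors deposited raw read counts per mouse transcript identifier, whole numbers without normalization, for both species. STAR is named, without a version, per the submitters' processing notes. Builds, annotation and trimming settings: not given in the sources used here. Of 3 count columns, the last, with 98.38% to 99.58% of stranded reads, was used. Symbols came from GENCODE M21 (GRCm38), which matched 17529 of 17641 features and may differ from the authors' annotation.

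Counts were fitted in R 4.3.3 with edgeR 4.0.16 (TMM, filterByExpr, quasi-likelihood F test, 8 group coefficients, 14448 genes, 16 residual degrees of freedom) and adjusted by Benjamini-Hochberg over all genes, with a threshold of 0.05. The fit was also run on simulated data in which few genes changed, in jerboa foot at P3 only. That run does not cover contrasts in which many genes change. The 5 genes, the lists and the contrasts were chosen with earlier results of these data known. Genes named beside the 5 were fixed relatives, up to 4 genes with the smallest adjusted p per list and comparison, and the 5 highest r per gene (prior count 2). Alternatives were DESeq2 1.42.0 (size factors and test), upper quartile scaling, other filters, limma voom (3.58.1), only the libraries compared, a replicate block, reads of either strand and each library left out. Promoter motifs were not analysed here.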

Additional observations from a re-analysis of the deposited data

Results flagged for a closer look

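Between jerboa and mouse, 4 changes from P0 to P3 differed by a test of the difference itself (edgeR quasi-likelihood test, Benjamini-Hochberg adjusted over 14448 genes), in a contrast added after the data were seen. This contrast shares libraries with the ratios by which the genes were chosen, so its p values are not free of that choice. In foot, the log2 change of Dupd1 differed by -1.48 (adjusted p = 0.0019), with means of 0.686 and 0.428 CPM at P0 and P3 in jerboa and 26.7 and 46.6 CPM in mouse. The change of Tecrl in foot differed by -2.84 (adjusted p = 3e-05), or by -1.94 without jerboa foot replicate 1 at P0, with means of 23.3 and 5.84 CPM in jerboa and 11.2 and 20.5 CPM in mouse. The change of F2rl1 in foot differed by 1.42 (adjusted p = 0.025), a call lost without any 1 of 3 libraries, with means of 1.08 and 0.596 CPM in jerboa and 13.6 and 2.95 CPM in mouse. In forelimb, the change of Dpysl5 differed by 2.62 (adjusted p = 7.7e-12), with means of 23.2 and 25.6 CPM in jerboa and 43.3 and 7.81 CPM in mouse.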

How the results depend on the processing

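The number of genes called in each of 12 comparisons stayed within 1.5 times its value under every alternative run, and the log2 ratio of foot to forelimb of the 5 genes kept its sign in both species. With upper quartile scaling the P3 over P0 value of F2rl1 in mouse forelimb was -0.002, and its median shift of all genes in the species difference of foot over forelimb at P0 was -0.103, against -0.052 with TMM. With DESeq2, F2rl1 in jerboa foot was called (-0.838). With limma voom, Dpysl5 in jerboa foot (-0.418) and the species difference of F2rl1 in foot (1.351) were not called, and F2rl1 in jerboa forelimb was 0.024. In fits of the compared libraries only, Dpysl5 in jerboa foot (-0.485) and Mettl11b in mouse forelimb (0.345) were not called, the species difference of Dupd1 in forelimb was (-0.315), F2rl1 in mouse forelimb was -0.002 and Elovl6 in jerboa foot over forelimb at P3 was -0.023. The cause was not tested. Correlations of foot with forelimb libraries ran from -0.086 to 0.115 for the same number and from -0.138 to 0.111 for different numbers. With 3 libraries per group these values cannot exclude that the numbers pair the libraries. A replicate block called 6761 genes for P3 against P0 in jerboa foot, against 6833 without it, and changed no call of the 5 genes. With the block, Ntmt1 in jerboa foot over forelimb at P3 was called (edgeR adjusted p = 0.043) and F2rl3 was not (0.064).

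Leaving out 1 library at a time changed a call or turned a sign for these values of P3 over P0. In jerboa foot the range was -0.288 to 0.213 for Mettl11b and -0.615 to -0.294 for Dpysl5. In jerboa forelimb it was 0.336 to 0.660 for Mettl11b, -1.059 to -0.633 for Tecrl and -0.228 to 0.246 for F2rl1. In mouse foot it was 0.799 to 0.967 for Tecrl, and in mouse forelimb 0.213 to 0.494 for Mettl11b and -0.136 to 0.124 for F2rl1. For the difference between species in foot it was 0.182 to 0.504 for Dpysl5 and 0.961 to 1.736 for F2rl1, and in forelimb -0.028 to 0.296 for Mettl11b, -0.034 to 0.392 for Tecrl and -0.244 to 0.230 for F2rl1. Among ratios of foot to forelimb near 0, Dpysl2 in mouse at P0 ranged from -0.088 to 0.131, and in jerboa at P3 Dusp26 from -0.084 to 0.046, Tecr from -0.093 to 0.038 and Elovl6 from -0.036 to 0.106. Depth limits Mettl11b most, with 11 and 17 reads in the jerboa foot groups.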
